A study of Mus musculus with 9 samples.

Results

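The 7 genes described act where lymphocytes meet a tumor cell. They are the NKG2D ligand genes Raet1d, Raet1e, Ulbp1 and H60b, the adhesion ligand genes Icam1 and Vcam1, and the granzyme inhibitor gene Serpinb9. They were taken by name from the 24493 genes of the deposited table, and all 7 were found. RNA sequencing covered 9 libraries: 3 of escape e1, 3 of escape e2 and 3 of the parental cells. All come from mouse pancreatic tumor cells, with C57BL/6 as the strain, cultured in DMEM with serum and left untreated. The series calls the escape lines immunotherapy-resistant derivatives of the parental line; the labels used here do not say which therapy was used or how many clones each line holds, nor whether libraries sharing a group name were grown as separate cultures. The p-values therefore measure only the spread between libraries, which may be technical.

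NKG2D is an activating receptor of natural killer (NK) cells and some T cells. Its ligands resemble MHC class I molecules and appear on stressed or transformed cells. In mice they fall into the Rae1 family, encoded by the Raet1 genes, the H60 family, and MULT1, encoded by Ulbp1. ICAM-1 and VCAM-1 are surface proteins that lymphocyte integrins hold on to, with LFA-1 binding ICAM-1 and VLA-4 binding VCAM-1. Serpinb9, also called SPI-6 in mice, blocks granzyme B, the protease that killer lymphocytes deliver into their targets.

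Levels are given in TPM, a transcript abundance scaled by length and to a fixed sum per library; TPM can be compared between genes but does not record how deeply a library was sequenced, which is unknown. Fold changes are differences in log2(TPM + 1) ± SE from a limma fit over 12769 genes, those reaching 1 TPM in 3 libraries or more, and they understate the change of genes near 0. A gene passed at an adjusted p under 0.05. Over all tested genes 70.6% passed in e1 (35.7% higher, 34.9% lower) and 73.5% in e2 (40.8% higher, 32.7% lower). Counts of passing genes in the lists below are to be set against these shares. Genes detected at 1 TPM or more numbered 11188 to 12039 per library. Escape e1 library 1 stood apart: its root mean square deviation from its group mean was 0.245 on the log2 scale, against 0.142 to 0.183 in the other 8 libraries. Results that rest on it are given with and without it.

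Of 8 ductal epithelial markers, 5 in e1, 6 in e2 and all 8 in parental cells had a mean of 1 TPM or more; Epcam and Cldn4 were below that level in both escape lines and Muc1 in e1. Their sum was 1164 to 1208 TPM in e1 and 1678 to 1739 TPM in e2, against 8513 to 9704 TPM in parental cells, and all 8 genes passed as lower in both lines; Epcam and Cldn4 met the level filter only through parental libraries and could only do so. Of 10 fibroblast markers, 6 in e1, 8 in e2 and 0 in parental cells reached that mean; the 8 that were tested met the level filter only through escape libraries. Their summed level was 313 to 328 TPM in e1 and 315 to 327 TPM in e2, against 0.68 to 1.03 TPM in parental libraries, while Lum was listed at 0 in all 9 libraries. Lymphocyte markers summed to 2.87 to 3.54 TPM in e1 and 2.06 to 2.12 TPM in e2, against 0.728 to 0.999 TPM in parental cells, with Itgb2 the only gene at a mean of 1 TPM or more, and Klrk1, Ncr1, Nkg7, Cd3e and Gzma listed at 0 throughout. Macrophage markers summed to 0.083 to 0.194 TPM in e1 and 1.70 to 2.64 TPM in e2, against 0.957 to 1.12 TPM in parental cells. Lyz2 was the only one at a mean of 1 TPM or more. It had 1.34, 1.51 and 0.914 TPM in e2 and was listed at 0 in e1 and parental libraries. Csf1r was instead highest in parental cells, at a mean of 0.825 TPM. Endothelial markers summed to at most 0.948 TPM in any library. In bulk RNA, a change in the share of cells that express a gene and a change in RNA per cell cannot be told apart.

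**Figure D1:**
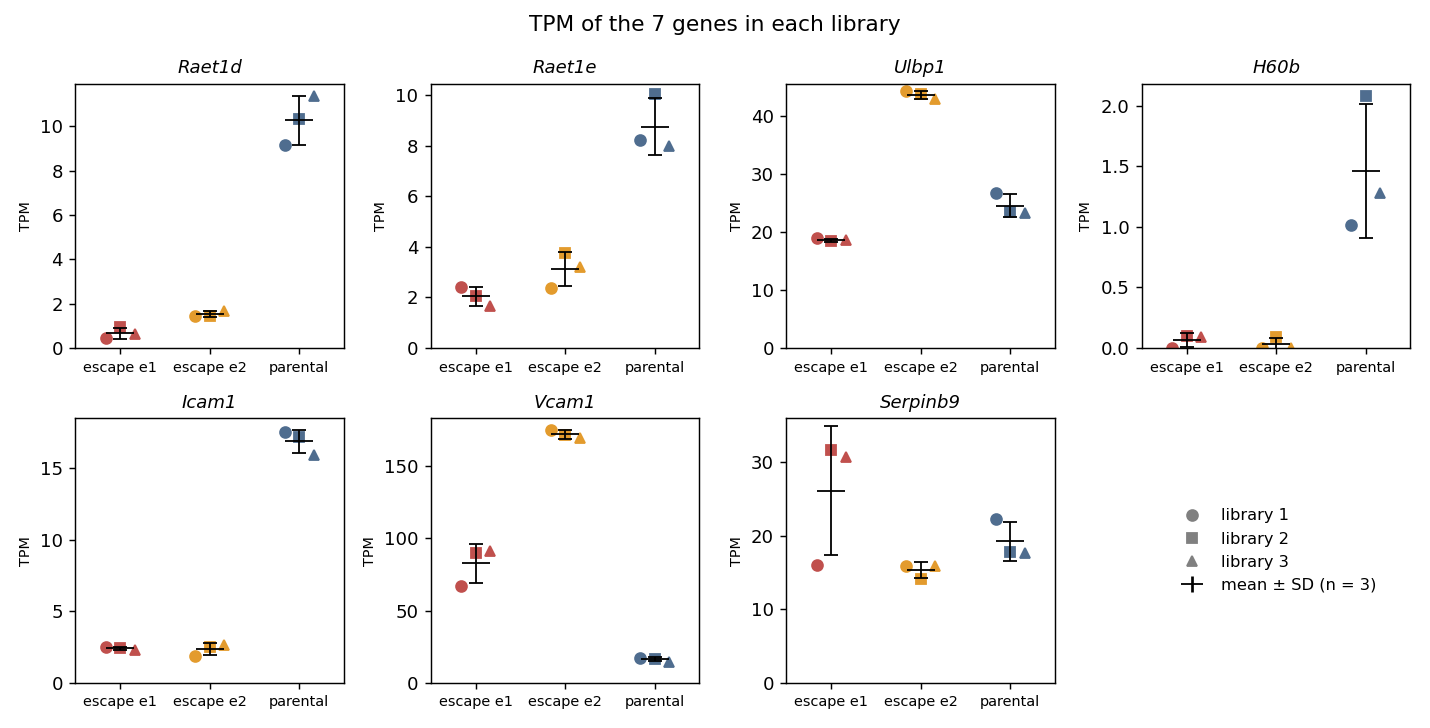
TPM (y axis, linear from 0) of each of the 7 genes in escape e1, escape e2 and parental cells; circles, squares and triangles are libraries 1, 2 and 3, and black bars the mean ± SD (n = 3). Raet1d, Raet1e, H60b and Icam1 are lower in every escape library than in every parental library, and Vcam1 is higher; Ulbp1 is high in e2 alone, and Serpinb9 in e1 libraries 2 and 3.

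Raet1d and Raet1e, the genes of the Rae1-delta and Rae1-epsilon ligands, fell in both escape lines. Raet1d had 0.446, 0.939 and 0.619 TPM in e1 and 1.45, 1.47 and 1.69 TPM in e2, against 9.15, 10.3 and 11.4 TPM in parental libraries. No escape library came near the parental range, and every e2 library lay above every e1 library. The log2 fold change was -2.76 ± 0.12 in e1 (adjusted p = 3.64e-08) and -2.15 ± 0.12 in e2 (adjusted p = 1.89e-07). The parental mean TPM was 15.4 times the e1 mean and 6.68 times the e2 mean. Only 3.05% of tested genes had a lower fold change than Raet1d in e1, and 3.76% in e2.

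Raet1e stood at 2.41, 2.05 and 1.68 TPM in e1 and 2.39, 3.75 and 3.21 TPM in e2, against 8.21, 10.0 and 7.998 TPM in parental cells. Parental libraries were again all higher, but the e1 and e2 libraries overlapped, e2 library 1 lying just below e1 library 1. Raet1e changed by -1.68 ± 0.14 in e1 (adjusted p = 4.33e-06) and by -1.25 ± 0.14 in e2 (adjusted p = 3.31e-05). In parental cells the Raet1e and Raet1d libraries overlapped in level, whereas in each escape library Raet1e was the higher, from 1.65 to 5.39 times the Raet1d level.

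These levels are not fully separate measurements. Both genes lie on the plus strand of chromosome 10 (mm10, with RefSeq positions of GRCm38.p6), Raet1e from 22158542 to 22189697 and Raet1d from 22361861 to 22374143. Of the 31-base words in GENCODE M21 transcripts of Raet1d, 67.1% also occur in transcripts of Raet1e, so reads from these stretches cannot be assigned by sequence alone, and the split between the genes is uncertain. RefSeq gives Raet1e a pair of start sites, and the sequence before the second is almost that of Raet1d. Over 248 aligned bases, 245 were identical (98.8%). The 250 bases before each start are shown because they carry this likeness next to the shared fall; capitals mark the 3 positions that differ (chr10:22361644-22361893 for Raet1d and chr10:22173247-22173496 for Raet1e, plus strand, GRCm38.p6, RefSeq).
Raet1d: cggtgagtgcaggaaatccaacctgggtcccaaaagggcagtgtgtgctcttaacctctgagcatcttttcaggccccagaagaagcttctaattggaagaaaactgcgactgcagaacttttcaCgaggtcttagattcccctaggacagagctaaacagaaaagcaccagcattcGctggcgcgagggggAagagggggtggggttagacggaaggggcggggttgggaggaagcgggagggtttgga
Raet1e: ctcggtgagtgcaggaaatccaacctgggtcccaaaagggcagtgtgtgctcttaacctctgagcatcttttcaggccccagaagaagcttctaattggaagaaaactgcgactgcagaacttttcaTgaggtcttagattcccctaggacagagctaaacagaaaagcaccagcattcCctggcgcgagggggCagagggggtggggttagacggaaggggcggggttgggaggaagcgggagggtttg
None of the motifs searched on both strands (GGGNNTTCC and GGAANTTCC, NF-kB-like; TGANTCA, AP-1-like; and an ISRE-like form) occurs from 250 bases before to 50 bases after either start, or around the upstream start of Raet1e.

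A sum over the Raet1 rows is free of the split among them. The summed level of Raet1a to Raet1e was 3.92, 4.18 and 3.63 TPM in e1 and 5.34, 7.05 and 6.46 TPM in e2, against 20.9, 24.9 and 23.9 TPM in parental cells. The log2 fold change was -2.30 ± 0.10 in e1 (adjusted p = 4.50e-08) and -1.74 ± 0.10 in e2 (adjusted p = 2.85e-07), and the sum was higher in e2 than in e1 by 0.56 ± 0.10 (adjusted p = 0.000861). The 3 groups did not overlap. Within the sum, Raet1a averaged 1.19 ± 0.135 TPM in e1, 1.63 ± 0.183 TPM in e2 and 4.22 ± 0.581 TPM in parental cells (SD, n = 3 each), and Raet1b and Raet1c were listed at 0 in all 9 libraries.

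H60b, the other NKG2D ligand gene of the chromosome 10 cluster (22273474 to 22288849, between Raet1e and Raet1d), was near 0 in both escape lines. It was listed at 0, 0.101 and 0.0953 TPM in e1 and at 0, 0.0954 and 0 TPM in e2, against 1.02, 2.08 and 1.28 TPM in parental libraries. It met the level filter only through its 3 parental libraries, so a fall was the only large change it could show: -1.18 ± 0.14 in e1 (adjusted p = 4.22e-05) and -1.23 ± 0.14 in e2 (adjusted p = 2.98e-05). The size depends on the scale: with a pseudocount of 0.1 TPM it was -3.25 in e1 and -3.58 in e2, and on the rlog scale -0.77 and -0.80. A related gene, H60c, stayed below 0.1 TPM in every library, and H60a was not listed by that name in the deposited data.

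Ulbp1, on the minus strand of chromosome 10 at 7444873 to 7473641 and so away from the Raet1 cluster, moved in opposite directions in the lines. It had 18.9, 18.4 and 18.6 TPM in e1 and 44.2, 43.7 and 42.9 TPM in e2, against 26.8, 23.4 and 23.3 TPM in parental cells. The 3 groups did not overlap: e1 lay below and e2 above the parental range. The log2 fold change was -0.38 ± 0.06 in e1 (adjusted p = 0.000411) and 0.81 ± 0.06 in e2 (adjusted p = 1.71e-06). The drop in e1 was modest for this data set, as 55.7% of tested genes changed by at least as much in that line, against 30.7% for the rise in e2. In e2 against e1 the difference was 1.18 ± 0.06 (adjusted p = 2.09e-07). The promoter window of Ulbp1 holds none of the motifs searched.

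Among the ligands, the balance moved toward Ulbp1 in both lines. Summed over the 8 rows for NKG2D ligands, the level was 22.8, 22.7 and 22.3 TPM in e1, 49.6, 50.9 and 49.4 TPM in e2, and 48.8, 50.4 and 48.6 TPM in parental cells. The e2 and parental totals overlapped, and the e1 totals were less than either. Ulbp1 supplied 81.0 to 83.3% of the total in e1 and 85.9 to 89.2% in e2, against 46.4 to 55.0% in parental cells. The Raet1 rows supplied 16.3 to 18.4% in e1 and 10.8 to 13.9% in e2, against 42.9 to 49.4% in parental cells. These shares describe transcripts and not surface protein.

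**Figure D2:**
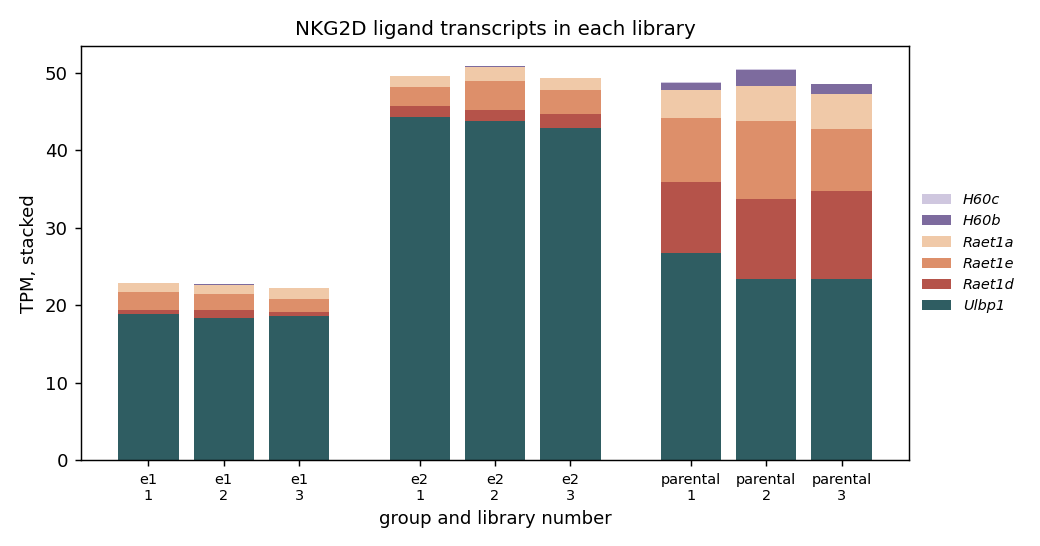
Stacked TPM of the NKG2D ligand genes (y axis) in each library of e1, e2 and parental cells; each color is a gene, and Raet1b and Raet1c, listed at 0, are left out. The e2 bars are about as tall as the parental bars (49.4 to 50.9 against 48.6 to 50.4 TPM) but are mostly Ulbp1, and the e1 bars reach 22.3 to 22.8 TPM.

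Icam1, encoding the LFA-1 ligand ICAM-1, fell in both lines. It stood at 2.53, 2.45 and 2.32 TPM in e1 and 1.87, 2.53 and 2.65 TPM in e2, against 17.5, 17.2 and 15.95 TPM in parental libraries. Escape and parental libraries were far apart, while those of e1 and e2 overlapped. The log2 fold change was -2.38 ± 0.10 in e1 (adjusted p = 2.48e-08) and -2.42 ± 0.10 in e2 (adjusted p = 1.90e-08), with 4.28% and 3.02% of tested genes lower. The e2 and e1 lines were not told apart, at -0.04 ± 0.10 (adjusted p = 0.718; 95% interval -0.26 to 0.18). Ductal epithelial markers, given above, fell in the same escape libraries; their part in the Icam1 and Raet1 results was not tested.

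Icam1 lies on chromosome 9, plus strand, from 21015940 to 21028814, and no 31-base word of its transcript occurs in another GENCODE gene. Its promoter is shown because it holds the only NF-kB-like match in the windows of the 5 members searched (Raet1d, Raet1e, Ulbp1, Icam1 and Serpinb9) (chr9:21015690-21015939, plus strand, GRCm38.p6, RefSeq; capitals mark GGAANTTCC, with its first base at -153 from the start site).
Icam1: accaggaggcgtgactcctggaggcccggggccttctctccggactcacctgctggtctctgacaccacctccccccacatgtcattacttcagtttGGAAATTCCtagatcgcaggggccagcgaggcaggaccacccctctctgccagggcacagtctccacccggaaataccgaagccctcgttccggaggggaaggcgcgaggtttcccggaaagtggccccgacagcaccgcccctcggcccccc
That motif occurs in 0.926% of 32817 promoter windows of the same length, and the other NF-kB-like form, GGGNNTTCC, in 5.82%. A match describes letters and shows no binding.

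Vcam1, encoding the VLA-4 ligand VCAM-1, rose in both lines. It reached 67.4, 90.1 and 91.3 TPM in e1 and 175, 171 and 169 TPM in e2, against 17.4, 16.6 and 14.8 TPM in parental libraries. The groups did not overlap, and e2 was the highest. Vcam1 changed by 2.27 ± 0.11 in e1 (adjusted p = 8.26e-08) and by 3.33 ± 0.11 in e2 (adjusted p = 5.39e-09). Its fold change ranked 253rd highest of 12769 genes in e1 and 217th in e2. The e2 libraries exceeded those of e1 by 1.06 ± 0.11 (adjusted p = 2.19e-05). Without e1 library 1 the change was 2.41 in e1 and the difference between the lines 0.92. The gene lies on the minus strand of chromosome 3 from 116110020 to 116129688. Fibroblast markers, given above, were higher in the same libraries; their part in the Vcam1 result was not tested. Endothelial markers summed to 0.170 to 0.475 TPM in e1 and 0.650 to 0.948 TPM in e2, against 0.531 to 0.885 TPM in parental cells. Within that sum Cdh5 averaged 0.247 TPM in e1 and 0.393 TPM in e2, against 0.0336 TPM in parental cells. Pecam1 was also higher in the escape lines, while Kdr was lower (0.0095 and 0.0338 against 0.569 TPM). The part of endothelial markers in the Vcam1 result was not tested either.

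In parental cells Icam1 and Vcam1 overlapped in level. The ratio of Vcam1 to Icam1 TPM was 26.7, 36.8 and 39.3 in e1 and 93.5, 67.8 and 63.9 in e2, against 0.994, 0.966 and 0.925 in parental libraries. All e2 ratios were above all e1 ratios. A ratio within a library does not depend on how libraries are scaled.

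Serpinb9, on chromosome 13 (plus strand, 32997061 to 33017955), was the member whose comparison with parental cells did not pass in either line. It stood at 15.9, 31.6 and 30.7 TPM in e1 and 15.9, 14.0 and 15.9 TPM in e2, against 22.3, 17.7 and 17.7 TPM in parental cells. Libraries 2 and 3 of e1 were above every other library, whereas e1 library 1 was below all parental libraries and next to e2. The log2 fold change was 0.37 ± 0.22 in e1 (adjusted p = 0.167; 95% interval -0.13 to 0.87) and -0.31 ± 0.22 in e2 (adjusted p = 0.235; 95% interval -0.81 to 0.19). Without e1 library 1 it was 0.68 in e1 (adjusted p = 0.000155), and in e2 the value stayed at -0.31 but passed (adjusted p = 0.00917), with an SE of 0.09 in place of 0.22. Over all alternatives the adjusted p ran from 0.000155 to 0.457 in e1 and from 0.00917 to 0.502 in e2. Between the lines, e2 was lower than e1, at -0.68 ± 0.22 (adjusted p = 0.0214), a call that was lost without e1 library 2 (adjusted p = 0.077), e1 library 3 (0.0752) or e2 library 2 (0.0668), and that strengthened to -0.98 without e1 library 1 (1.23e-05).

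The promoter window of Serpinb9 has the only ISRE-like match found among these windows, and the form occurs in 3.43% of promoter windows. Its start site lies inside the gene span of 32997061 to 33017955, and the bases before that span were not searched. The window is printed with the match in capitals (chr13:33004291-33004540, plus strand, GRCm38.p6, RefSeq). The match lies on the opposite strand, with its first base at -46 from the start site.
Serpinb9: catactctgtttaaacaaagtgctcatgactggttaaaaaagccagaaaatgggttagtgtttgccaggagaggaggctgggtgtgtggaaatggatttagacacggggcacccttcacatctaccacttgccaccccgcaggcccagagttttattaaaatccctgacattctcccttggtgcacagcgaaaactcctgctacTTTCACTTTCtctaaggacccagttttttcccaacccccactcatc

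The neighbouring paralog Serpinb9b, reported in mice as an inhibitor of granzyme M, moved more than Serpinb9. It stood at 19.4, 26.6 and 25.2 TPM in e1 and 2.39, 2.63 and 3.51 TPM in e2, against 17.4, 9.87 and 9.49 TPM in parental libraries. It rose by 0.94 ± 0.22 in e1 (adjusted p = 0.00354) and changed by -1.75 ± 0.22 in e2 (adjusted p = 5.82e-05). Of the 31-base words of Serpinb9, 3.79% occur in Serpinb9b. With all 7 Serpinb9 rows summed, the change was 0.62 ± 0.20 in e1 (adjusted p = 0.0178) and -0.68 ± 0.20 in e2 (adjusted p = 0.0109), both now past the threshold.

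**Figure D3:**
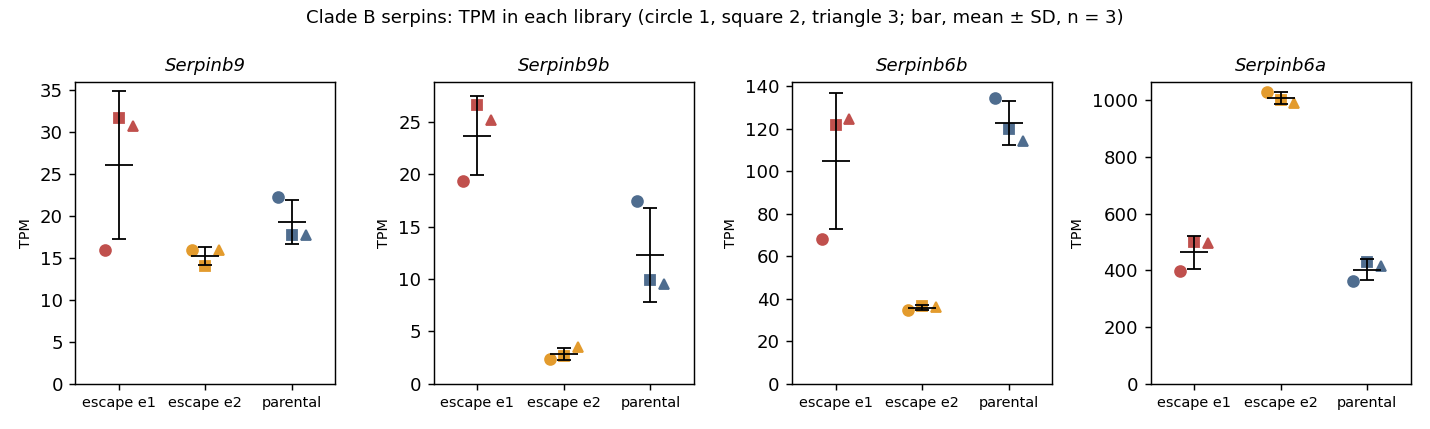
TPM (y axis, linear from 0) of Serpinb9 and the clade B serpin genes Serpinb9b, Serpinb6b and Serpinb6a in e1, e2 and parental cells; circles, squares and triangles are libraries 1, 2 and 3, and bars the mean ± SD (n = 3). In each panel e1 library 1 is the lowest e1 library; Serpinb9b is at 2.39 to 3.51 TPM in e2 and Serpinb6a at 989.6 to 1031 TPM there.

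Of 22 other clade B serpin genes, 7 were tested. In e1, 1 was higher, 4 were lower and 2 did not pass; in e2 the counts were equal, with Serpinb9b the gene that rose in e1 and Serpinb6a in e2. Serpinb5, the gene of maspin, was listed at 0.0217, 0.0324 and 0 TPM in e1 and stood at 0.284, 0.398 and 0.514 TPM in e2, against 14.1, 18.3 and 17.0 TPM in parental cells (-4.09 ± 0.11 and -3.64 ± 0.11). Serpinb5 and Serpinb2, both among the 4 lower genes in each line, met the level filter only through the parental libraries, so they could only fall. Serpinb6b, an inhibitor of granzyme A in mice, averaged 35.9 ± 1.05 TPM in e2 against 123 ± 10.4 TPM in parental cells (SD, n = 3 each), a change of -1.74 ± 0.20 (adjusted p = 2.80e-05). In e1 Serpinb6b did not pass, at 68.2, 122 and 125 TPM. Its change there was -0.27 ± 0.20, and 0.01 without e1 library 1. Serpinb6a rose by 1.32 ± 0.09 in e2. In e1 Serpinb6a did not pass, at 0.20 ± 0.09, but passed as higher without e1 library 1, at 0.31 (limma, adjusted p = 0.00196). Members of these families are close copies, and the authors' assignment of reads among them is a further limit. The median log2 fold change of the 7 was -1.16 in e1 and -1.74 in e2, against 0.02 and 0.07 over all tested genes; without e1 library 1 it was -0.74 in e1. These medians include the 2 genes that could only fall.

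**Figure D4:**
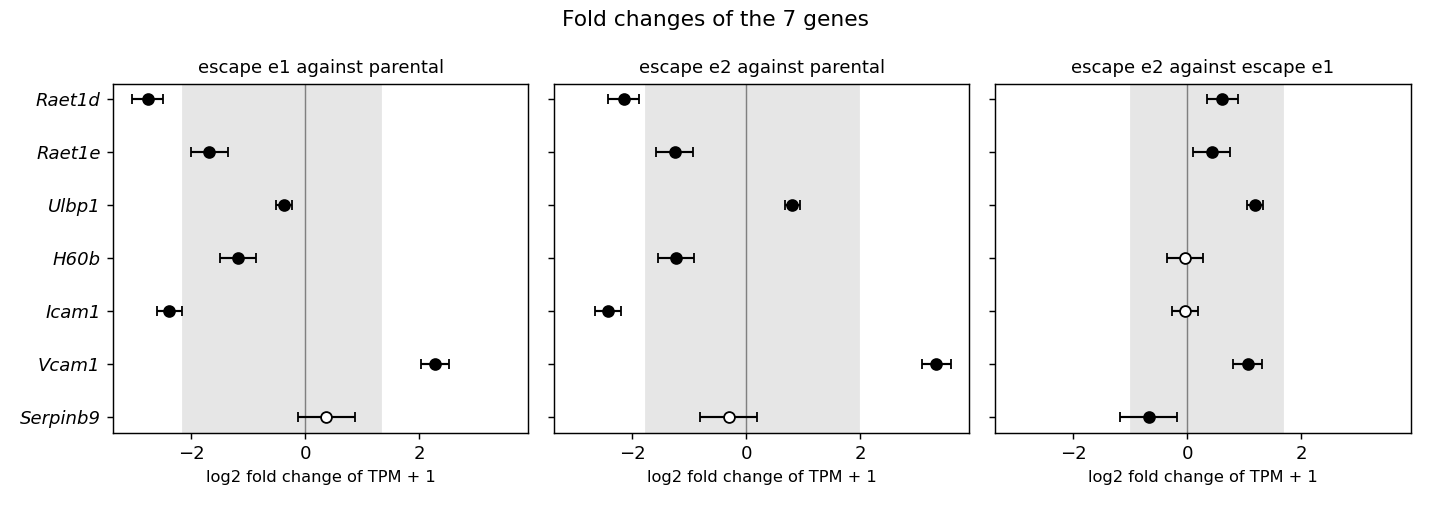
Log2 fold change of TPM + 1 (x axis) with 95% intervals for the 7 genes in e1 against parental, e2 against parental and e2 against e1; filled points passed at an adjusted p under 0.05, and the grey band spans the 5th to 95th percentile of all tested genes. Raet1d and Icam1 lie below the band and Vcam1 above it in both escape lines.

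In e1, 1 of the 7 members was higher and 5 were lower, and in e2, 2 were higher and 4 lower. Over all genes 70.6% passed in e1 (35.7% higher, 34.9% lower) and 73.5% in e2 (40.8% higher, 32.7% lower), so 6 of 7 is near the background share and is not a result about these genes. Libraries did not overlap for 71.4% of all tested genes in e1 and 81.4% in e2, so separated groups are common too. The members' median was -1.18 in e1 and -1.23 in e2, where the median over all tested genes was 0.02 and 0.07; H60b, which could only fall, sets both members' medians. Without e1 library 1, 2 members were higher and 5 lower in each line, where 75.9% of all genes passed in e1 (39.3% higher, 36.6% lower) and 80.2% in e2 (44.4% higher, 35.8% lower). Both comparisons use the same parental libraries.

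Between the lines, 4 members were higher and 1 was lower in e2 than in e1, where 70.3% of all genes passed (40.6% higher, 29.7% lower) and 76.5% did not overlap. Raet1d was higher in e2 by 0.62 ± 0.12 (adjusted p = 0.00129), and by 1.14 with a pseudocount of 0.1 TPM. Raet1e was higher by 0.43 ± 0.14 (adjusted p = 0.0235), a call lost without e1 library 3 (adjusted p = 0.0806), e2 library 2 (0.0936) or e2 library 3 (0.0678), and under some other settings given in the closing section. H60b did not pass, at -0.05 ± 0.14 (adjusted p = 0.785; 95% interval -0.36 to 0.27), with both lines at or near 0.

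By level, the order of the members differed between groups. In e1, Vcam1 was highest, followed by Serpinb9 and Ulbp1, whose libraries overlapped, then Icam1 and Raet1e, which also overlapped, then Raet1d and H60b. In e2 the order was Vcam1, Ulbp1 and Serpinb9 without overlap, then Raet1e and Icam1, which overlapped, then Raet1d and H60b. In parental cells Ulbp1 was highest, then Serpinb9, then Icam1 and Vcam1, then Raet1d and Raet1e, and H60b lowest; libraries overlapped within each of those pairs. Vcam1 stood above 86.0% of tested genes in e1 and 93.4% in e2, against 50.6% in parental cells.

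Of 13 genes for ligands of other NK cell receptors, 10 were tested: 2 were higher and 6 lower in e1, and 2 were higher and 5 lower in e2 (median -0.39 and -0.23). Nectin2, a ligand of the activating receptor DNAM-1 and of inhibitory receptors, had 11.9, 7.72 and 8.93 TPM in e1 and 17.5, 16.4 and 17.5 TPM in e2, against 65.1, 53.5 and 49.8 TPM in parental cells (-2.45 ± 0.14 and -1.65 ± 0.14). Tnfsf9, the ligand of the costimulatory receptor 4-1BB, changed by -2.18 ± 0.08 in e1 and -1.33 ± 0.08 in e2. Clec2f, a C-type lectin of the family bound by NKR-P1 receptors and with close copies, changed by -2.13 ± 0.13 and -2.68 ± 0.13 in the same order. Among the genes that rose was Cdh2, encoding N-cadherin, a ligand of the inhibitory receptor KLRG1, at 4.55 ± 0.08 in e1 and 4.35 ± 0.08 in e2; it stood at 0.544 ± 0.161 TPM in parental cells (SD, n = 3) and could hardly have come out lower. H2-T23, encoding the class I molecule Qa-1 that NKG2A recognizes, rose by 0.45 ± 0.13 in e1 and 1.48 ± 0.13 in e2.

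Of 8 genes for enzymes and damage response factors reported to regulate NKG2D ligands, 5 were higher and 2 lower in e1, and 6 were higher and 0 lower in e2 (median 0.53 and 0.50). Mmp14, a membrane metalloprotease reported to shed NKG2D ligands, rose by 1.15 ± 0.05 in e1 and 0.61 ± 0.05 in e2, and the sheddase gene Adam17 by 0.55 ± 0.06 and 0.60 ± 0.06. E2f1, a cell cycle factor reported to drive Raet1 transcription in mouse cells, averaged 50.8 ± 2.18 TPM in e1 and 62.7 ± 0.285 TPM in e2, against 29.8 ± 1.39 TPM in parental cells (SD, n = 3 each). It rose by 0.75 ± 0.05 in e1 and 1.05 ± 0.05 in e2.

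**Figure D5:**
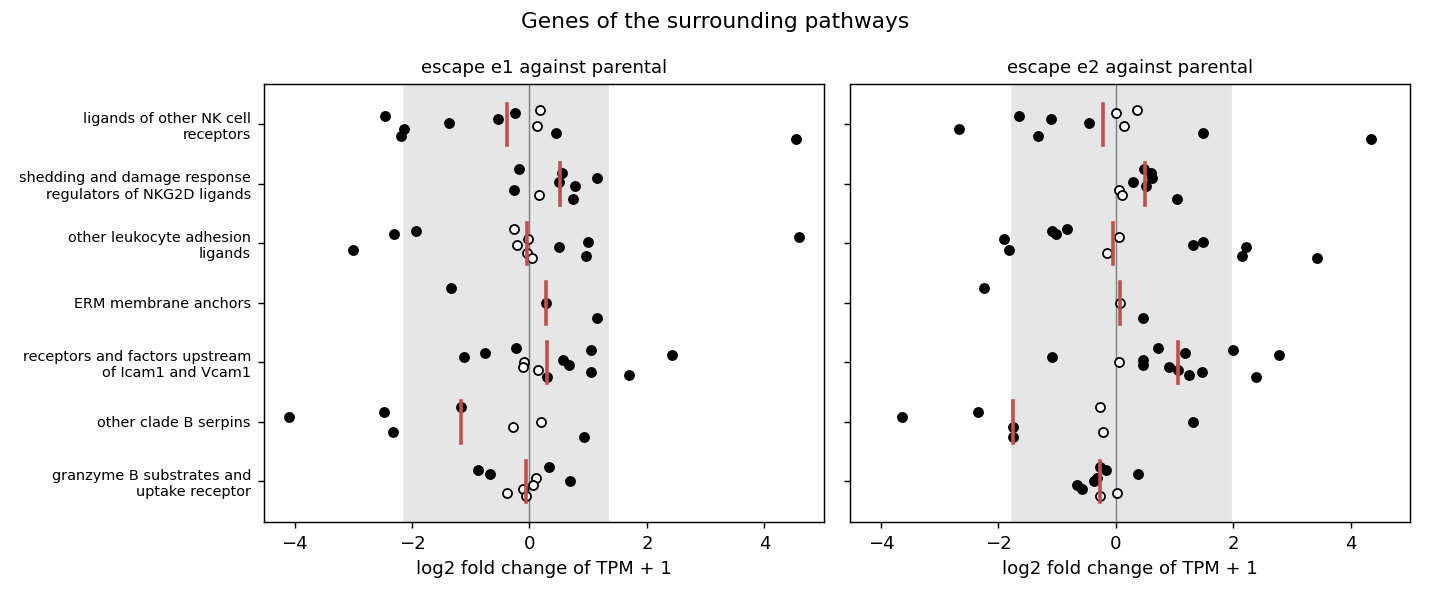
Log2 fold change of TPM + 1 (x axis) of each tested gene in 7 surrounding gene lists, for e1 against parental (left) and e2 against parental (right); filled points passed at an adjusted p under 0.05, red bars are list medians, and the grey band spans the 5th to 95th percentile of all tested genes. Receptors and factors upstream of Icam1 and Vcam1 sit mostly right of 0 in e2, with a median of 1.06.

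Of 16 genes for other leukocyte adhesion ligands, 12 were tested: 4 were higher and 3 lower in e1, and 5 were higher and 5 lower in e2 (median -0.04 and -0.05). Selp, encoding P-selectin, changed by -3.00 ± 0.09 in e1 and -1.82 ± 0.09 in e2, and F11r, a junctional adhesion molecule that also binds LFA-1, by -1.93 ± 0.06 and -1.09 ± 0.06. Cx3cl1, a membrane-bound chemokine that tethers leukocytes, rose by 0.51 ± 0.05 in e1 and 2.21 ± 0.05 in e2. Jam3, another junctional molecule, was at 33.8 ± 3.27 TPM in e1 and 0.505 ± 0.116 TPM in e2, against 0.452 ± 0.125 TPM in parental cells (SD, n = 3 each). It met the level filter only through the 3 e1 libraries, so it could only come out high there (4.58 ± 0.10 in e1 and 0.05 ± 0.10 in e2). Fn1, fibronectin, a VLA-4 ligand in the matrix, rose by 0.97 ± 0.30 in e1 and 2.16 ± 0.30 in e2; without e1 library 1 its value in e1 was 0.66 and did not pass (adjusted p = 0.0618). Icam4, the gene next to Icam1, changed by -0.26 ± 0.24 in e1 and did not pass, and by -0.82 ± 0.24 in e2.

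Of 13 cytokine receptors and transcription factors upstream of Icam1 and Vcam1, 7 were higher and 3 lower in e1 (median 0.30). In e2, 11 were higher and 1 lower (median 1.06). Among all tested genes 35.7% were higher and 34.9% lower in e1, and 40.8% and 32.7% in e2. Il1rap, the accessory chain of the IL-1 receptor, was higher by 2.42 ± 0.07 in e1 and 2.78 ± 0.07 in e2, having met the level filter only through escape libraries. Tnfrsf1b, a TNF receptor, rose by 1.04 ± 0.11 and 1.997 ± 0.11. Irf1, an interferon-induced factor, rose by 1.69 ± 0.06 and 1.24 ± 0.06. Ifngr1, the ligand-binding chain of the interferon-gamma receptor, changed by -1.11 ± 0.07 in e1 and -1.09 ± 0.07 in e2. The NF-kB subunit gene Rela passed in neither line (-0.10 ± 0.07 and 0.05 ± 0.07). The subunit gene Nfkb1 rose by 0.68 ± 0.05 in e1 and 0.47 ± 0.05 in e2. The subunit genes Nfkb2 and Relb did not pass in e1 (-0.11 ± 0.12 and 0.14 ± 0.07). In e2 they rose by 0.91 ± 0.12 and 1.06 ± 0.07. Without e1 library 1, Nfkb2 passed as lower in e1, at -0.23 (limma, adjusted p = 0.0469). Relb still did not pass there, at 0.08 (adjusted p = 0.265). Of the cytoskeletal linkers that anchor ICAM-1 and VCAM-1, Ezr fell (-1.33 ± 0.09 in e1 and -2.24 ± 0.09 in e2), and Msn rose by 1.14 ± 0.11 and 0.46 ± 0.11.

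Of 9 genes for granzyme B substrates and its uptake receptor, 2 were higher and 2 lower in e1 (median -0.06). In e2, 1 was higher and 6 were lower (median -0.26). Among all tested genes 70.6% passed in e1 and 73.5% in e2. Bid, which granzyme B cuts to reach mitochondria, rose by 0.33 ± 0.06 in e1 and changed by -0.26 ± 0.06 in e2.

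Without e1 library 1, the counts in e1 were 2 higher and 7 lower among ligands of other NK receptors, 6 and 2 among the regulators, 3 and 4 among the adhesion ligands, 7 and 4 among the upstream genes, 2 and 4 among the serpins, and 2 and 2 among the granzyme genes. In that fit 39.3% of all genes were higher and 36.6% lower in e1.

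Genes most like each member were those with the smallest root mean square difference in centered log2(TPM + 1) over the 9 libraries, among 12109 tested genes. For Raet1d they were Paqr8 (0.111), Slc26a2, a sulfate transporter (0.119), and Mmp13, a collagenase (0.124). For Raet1e they were Rab11fip1 (0.150), Letm1 (0.159) and Gprc5a (0.164). Ulbp1 lay nearest to Tyro3, a receptor kinase (0.0395), Aldoa, a glycolytic aldolase (0.0568), and Iqck (0.0610). Vcam1 lay nearest to Wnt5a, a secreted Wnt ligand (0.131), Edil3 (0.133) and Cd248, endosialin (0.161), and Serpinb9 to Fmc1 (0.136), Syt11 (0.156) and Dexi (0.158). Icam1 was nearest to Ano9 (0.0978), Drd3 (0.0984) and R3hdml (0.103), and H60b to Myo7b (0.0965), Pnliprp2 (0.0986) and Ggt6 (0.101). Ano9, Pnliprp2 and Ggt6 were at 0 in both escape lines, so likeness on this scale does not mean like levels.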

How the data were processed

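RNA was sequenced in 9 libraries grouped by their titles into escape e1, escape e2 and parental cells, 3 each. The authors deposited TPM per gene and library, and a second table with regularized log2 values (rlog). The authors used Salmon and DESeq2 with mm10, per the submitters' processing notes; their versions, the annotation and the strand setting were not given in the sources used here. Deposited TPM keeps no depth, so no counting interval can be given, and a gene at 0 is called listed at 0.

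Of 24493 genes, the 12769 reaching 1 TPM in 3 or more libraries were tested on log2(TPM + 1) with limma 3.58.1 (R 4.3.3): 3 group means, empirical Bayes with trend and robustness, two-sided, Benjamini-Hochberg adjustment over all genes tested. The fit was tested on simulated data. The members, gene lists and motifs were chosen with earlier results of these data known. All 7 members are named. List genes were named among the largest called changes at 5 TPM or more, at most 3 per direction. Rela, Nfkb1, Nfkb2, Relb, Icam4, Itgb2 and Itgal were named after their values were seen. The sums over Raet1 and Serpinb9 rows and the list counts without e1 library 1 were added after seeing the data. Promoters and gene positions are RefSeq's for GRCm38.p6; 5 of 7 members had a promoter.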

Additional observations from a re-analysis of the deposited data

Results flagged for a closer look

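The escape lines differed from each other in 5 of 7 members, where 70.3% of all tested genes passed, so the count itself is at the background share. By limma's test of e2 against e1, the difference was 1.18 on the log2 scale for Ulbp1, the only member to fall in e1 and rise in e2. It was 1.06 for Vcam1, 0.62 for Raet1d and 0.43 for Raet1e, each higher in e2, and -0.68 for Serpinb9. The Raet1e and Serpinb9 calls were lost under several alternatives, given in the next section. Ulbp1, Vcam1 and Raet1d were higher in all 3 e2 libraries than in all e1 libraries, and Serpinb9 was lower in all 3. Groups did not overlap in 76.5% of all tested genes in this comparison.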

How the results depend on the processing

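Over 9 planned settings, the omission of each library and the added row sums, 364 of 381 recomputed member values kept their direction and side of the threshold; 11 calls were lost, 5 gained and 1 value changed sign. Those that moved concern Serpinb9 in each comparison and, for e2 against e1, Raet1e and Icam1. For Serpinb9 in e1, summed rows gave 0.62 and leaving out single libraries 0.20 to 0.68. In e2 it passed with 2 groups only (-0.31) and with summed rows (-0.68), and ran from -0.36 to -0.20 without single libraries. Between the lines it did not pass with no filter (-0.68) or 2 groups only (-0.68), and ran from -0.98 to -0.51 without single libraries. Raet1e in e2 against e1 did not pass with no filter (0.43), median-ratio scaling (0.35) or rlog values (0.30), and ran from 0.32 to 0.56 without single libraries. Icam1, not called there, ran from -0.11 to 0.06, turning positive (0.0645) without e2 library 1. The cause was not tested. With a filter of 5 TPM, H60b has no value. Counts of genes passing stayed within 1.5 times, at 7548 to 9695 in e1, 7795 to 10246 in e2 and 7630 to 9331 between the lines. Deviations of same-numbered libraries correlated from -0.13 to 0.0499, and those of different-numbered libraries from -0.161 to 0.127. These values cannot show whether same-numbered libraries were handled together. With the replicate block 8742, 9163 and 8740 genes passed for e1 and e2 against parental and e2 against e1. Without it the counts were 9014, 9383 and 8981, and no member's call changed. Depth is unknown, which limits H60b, Raet1d and other genes near 0.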

Other observations

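Itgb2, the beta chain of LFA-1 and so a receptor subunit for ICAM-1, was itself present in the escape lines. It averaged 2.89 ± 0.235 TPM in e1 and 1.73 ± 0.0633 TPM in e2, against 0.606 ± 0.237 TPM in parental cells (SD, n = 3 each), a log2 fold change of 1.29 ± 0.11 in e1 and 0.78 ± 0.11 in e2. It met the level filter only through the escape libraries, so these values are a description. Its LFA-1 partner Itgal stayed below 0.05 TPM in every group mean.

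Genes beside the members were compared with them by position. Within 500 kb of the Raet1 and H60 cluster, 3 other genes were tested, of which 1 rose, 1 fell and 1 did not pass in each line. Sgk1, a kinase gene there, rose by 0.58 in e1 and 0.92 in e2, and E030030I06Rik changed by -0.88 in e1 (limma, adjusted p = 0.00273) and did not pass in e2 at -0.42. Around Icam1, 30 other genes had a median of 0.29 in e1 and 0.06 in e2. Around Vcam1, 11 other genes had a median of 0.28 in e1 and 0.03 in e2, 8 of them higher in e1 and 4 in e2, where 35.7% and 40.8% of all tested genes were higher. Around Serpinb9, 4 other genes, 3 of them clade B serpins, had a median of 0.22 in e1 and -1.01 in e2. In e2 against e1 their median was -0.82, and Serpinb9 itself was at -0.68. There the serpins Serpinb9b (-2.68) and Serpinb6b (-1.47) were lower, as was Wrnip1, not a serpin (-0.17). The serpin Serpinb1a was higher (0.89). Of all tested genes, 29.7% were lower and 40.6% higher in that comparison.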
